A study of Mus musculus with 6 samples.

Results

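Major urinary proteins are small lipocalins, barrel-shaped carriers that bind volatile signalling molecules. The mouse liver secretes them into blood, from which they pass into urine and act as scent signals between animals. In liver their genes are known as targets of growth hormone, which acts through its receptor, the kinase Jak2 and the transcription factor Stat5b, and adult males express most of them more strongly than females. Glucocorticoids and thyroid hormone are also known to raise their expression.

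The genes described here were Mup1, Mup2, Mup3, Mup4, Mup5, Mup20 and Mup21. They were followed on 6 Agilent mouse arrays in 2 colours through every gene probe whose RefSeq accession belonged to one of these symbols. This gave 8 of the 55681 probes, covering 6 of the 7 genes among 19752 genes with a symbol on the array. Mup2, Mup3, Mup5 and Mup21 had 1 probe each, Mup4 and Mup20 had 2 each, and 0 probes were named Mup1. The mouse RefSeq gene list (GRCm38.p6) holds 22 protein-coding Mup genes on chromosome 4 and 24 Mup pseudogene entries. Along that chromosome the members are ordered Mup4, Mup2, Mup1, Mup5, Mup20, Mup3 and Mup21. The coding sequences of the family are very much alike. Probe sequences were not used here, so how much signal a probe took from other Mup transcripts was not tested, and each value belongs to a probe rather than to a single transcript.

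The arrays compared total liver RNA of Fra-1hep mice with that of wild-type mice, both C57BL/6J, untreated and 26 to 28 weeks old. In Fra-1hep mice the hepatocytes overexpress Fra-1, a subunit of the AP-1 transcription factor encoded by Fosl1. The promoter that drives the transgene and the sex of the animals are not given in the sources used here. Each of 5 arrays carried Cy5-labelled RNA of 1 Fra-1hep mouse and, in Cy3, a pool made from 5 chow-fed wild-type mice. The sixth array had the dyes the other way round: the wild-type pool carried Cy5 and pooled Fra-1hep RNA carried Cy3. Ratios are given as log2 of Fra-1hep over wild type on every array, the dye-swapped one included, so that -1 means a 2-fold lower signal in Fra-1hep liver.

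The arrays of mice 2 and 3 differed by no more than replicate spots do (0.94 times that noise, against 1.61 to 2.14 times for the 9 other pairs). They were averaged and counted as 1 sample, which leaves n = 4 Fra-1hep samples. The wild-type pool is 1 sample, so its own spread between animals is not in any error given below. The dye-swapped array weighs as much in the fitted ratio as all mouse arrays together, and its own error is not estimated. Precision is limited by how few arrays there were. Fosl1 itself does not check the labels, since its 1 probe rose well above background in neither group (0 of 6 arrays), so the groups are named from the labels alone. Hepatocyte markers were present in both groups, with a median log2 ratio of -0.01 over 8 markers (0 higher, 2 lower). Array by array their median was 0.14, 0.22, 0.23, 0.18 and 0.09 in mice 1 to 5 and -0.35 in the dye-swapped pools. The fitted value near 0 therefore joins shifts of opposite sign.

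The stretch just before the transcription start is shown for 3 members, because those genes fell on these arrays and lie in a family of near copies. The sequences are RefSeq's, build GRCm38.p6, 250 bases each, all on the minus strand: Mup3 at chr4:62087318-62087567, Mup4 at chr4:59960668-59960917 and Mup21 at chr4:62150842-62151091. They are written 5′ to 3′, with the last base next to the start. Capitals in Mup21 and Mup4 mark bases without an equal partner in a global alignment to Mup3, including overhanging ends.
Mup3: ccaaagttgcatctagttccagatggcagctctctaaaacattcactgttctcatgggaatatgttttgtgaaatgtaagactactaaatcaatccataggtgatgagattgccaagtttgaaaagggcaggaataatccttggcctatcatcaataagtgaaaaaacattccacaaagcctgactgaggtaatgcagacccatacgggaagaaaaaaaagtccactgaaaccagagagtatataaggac
Mup21: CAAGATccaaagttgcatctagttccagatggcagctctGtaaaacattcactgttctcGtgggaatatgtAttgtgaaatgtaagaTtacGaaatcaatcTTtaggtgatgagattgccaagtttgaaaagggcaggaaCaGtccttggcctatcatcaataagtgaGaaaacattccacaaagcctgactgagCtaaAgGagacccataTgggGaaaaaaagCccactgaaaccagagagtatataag
Mup4: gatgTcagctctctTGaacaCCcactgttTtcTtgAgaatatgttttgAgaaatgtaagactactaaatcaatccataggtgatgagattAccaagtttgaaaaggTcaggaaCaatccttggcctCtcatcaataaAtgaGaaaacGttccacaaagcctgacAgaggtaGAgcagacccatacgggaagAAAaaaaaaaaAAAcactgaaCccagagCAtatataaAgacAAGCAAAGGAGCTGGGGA

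Over their aligned bases the Mup3 and Mup21 windows were 93.4% identical, and pairs among the windows of Mup2, Mup3, Mup4 and Mup21 ranged from 84.8% to that value. In these 250 bases, letters were searched on both strands in the 14 Mup genes with a window, 4 of them members, and in 32851 windows of all genes. The Mup2 window overlaps its own annotated gene, so it was not printed, but it is among the 4. TTCNNNGAA, the core bound by STAT5, was in 0 of the 14 Mup windows and in 7.02% of all windows. TGACTCA, the AP-1 element, was in 0 of 14 and in 4.46% of all. The TATA box, searched as TATAAA, was in 2 of 14, among them Mup4 with its first base at position -27 from the start, and in 12.4% of all. CCAAT was in 6 of 14, though in 0 of the 4 members, and in 33.8% of all. TTGCGCAA, bound by C/EBP proteins, and the full palindromic element of the glucocorticoid receptor were in 0 of 14, against 0.164% and 0.00913% of all windows. Among the members the TATAAA of Mup4 was therefore the single exact match, with no overlap between patterns. A missing match says only that the exact letters are not in this window. The windows of Mup3 and Mup21 hold the close letters TATAAG near their last base, which the search did not count.

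Transcripts of the major urinary proteins were lower in the liver of Fra-1hep mice. Of the 8 member probes, all tested, 7 were lower, 0 were higher and 1 did not pass (limma, Benjamini-Hochberg adjusted p under 0.05). Over all 30110 tested probes 11.6% changed, 6.04% lower and 5.52% higher. The falls reached 5.10-fold for Mup2 and lay between 3.21- and 3.64-fold for Mup3, Mup4, Mup5 and Mup21 by their brightest probes. The dimmer Mup4 probe was 1.55-fold lower. Of the Mup20 probes 1 was 1.77-fold lower and the other did not pass. The median over the brightest probe of each of the 6 genes was -1.78, against 0.01 over all tested probes. The same 7 probes were lower on all 6 arrays, as 12.2% of all tested probes were. In bulk liver RNA, fewer cells of a type and less RNA per cell cannot be told apart.

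**Figure D1:**
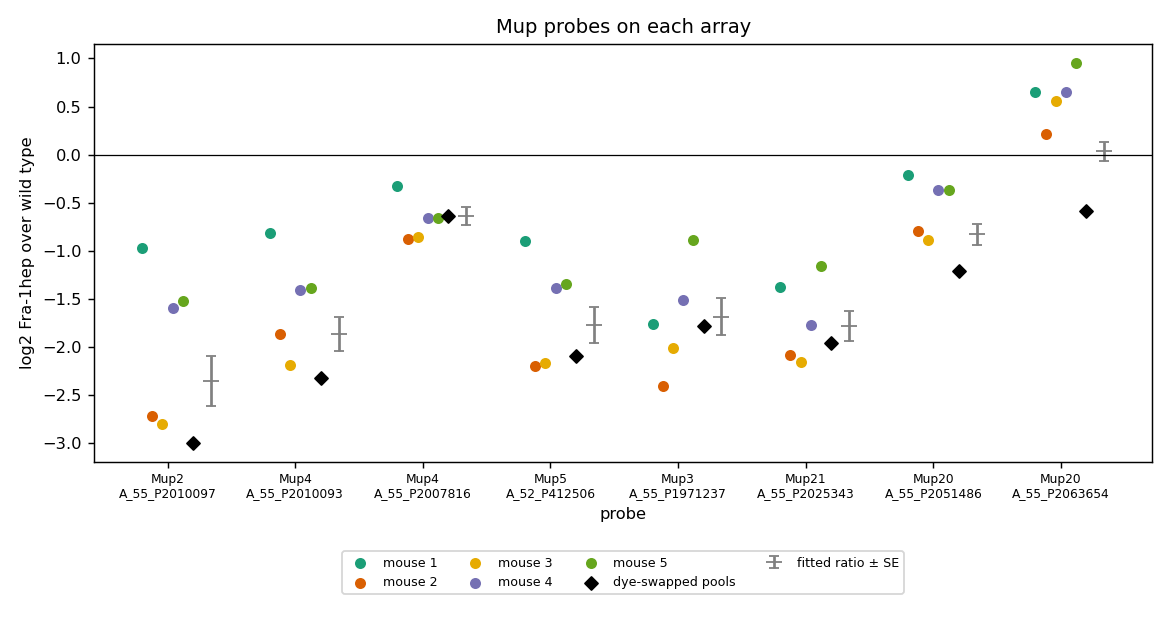
Log2 ratio of Fra-1hep over wild type (vertical axis) for each of the 8 Mup probes (horizontal axis). Circles are single mice, diamonds the dye-swapped pools turned to the same direction, and grey bars the fitted ratio with its SE. The points of 7 probes lie below 0 on every array, while Mup20 probe A_55_P2063654 lies above 0 in the mice and below 0 in the pools.

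Mup2 encodes one of the abundant urinary forms made by liver. Its probe (A_55_P2010097, NM_001045550) gave log2 ratios of -0.97, -2.71, -2.80, -1.59 and -1.52 in mice 1 to 5 and -2.99 in the dye-swapped pools. The fall was smallest in mouse 1 and largest in the pools and in mice 2 and 3. The fitted ratio was -2.35 (SE 0.26, n = 4, limma adjusted p = 0.00129), a 5.10-fold lower signal and the 22nd lowest of all tested probes. On the log2 intensity scale, the wild-type pool read 17.15 ± 0.28 (SD over its 5 Cy3 hybridisations, which are technical) and Fra-1hep liver 15.37 ± 0.51 (SD, n = 4) in Cy5. With the dyes exchanged the wild-type pool read 16.87 and the Fra-1hep pool 13.88. Every Fra-1hep value for this probe therefore lay below every wild-type value in either dye.

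Mup3 encodes another urinary protein made in liver. Its probe (A_55_P1971237, NM_001039544) read -1.75, -2.41, -2.01, -1.51 and -0.89 in mice 1 to 5 and -1.78 in the pools. The smallest fall was in mouse 5, and mouse 1 was well inside the range of the others. The fitted ratio was -1.68 (SE 0.19, n = 4, limma adjusted p = 0.0015), 3.21-fold lower. Its log2 intensity was 16.40 ± 0.26 in the wild-type pool and 14.77 ± 0.63 (SD, n = 4) in Fra-1hep mice, and 16.26 against 14.49 with the dyes exchanged.

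Mup21 follows Mup3 among the members on chromosome 4 and shares the most alike of the printed windows with it. Its probe (A_55_P2025343, NM_001009550) read -1.37, -2.08, -2.15, -1.77 and -1.16 in mice 1 to 5 and -1.96 in the pools. As for Mup3, mouse 5 had the smallest fall and mice 2 and 3 the largest. The fitted ratio was -1.78 (SE 0.15, n = 4, limma adjusted p = 0.000439), 3.44-fold lower. Its wild-type signal repeated within 0.05 (SD of 5 Cy3 hybridisations of 1 pool) around 15.08, against 13.48 ± 0.42 (SD, n = 4) in the mice. The wild-type signal of this probe varied less between arrays than its Fra-1hep signal did.

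Mup4 encodes a form known from the nasal and lacrimal glands as well as from urine, and Mup5 a form known from salivary and lacrimal glands. The brighter Mup4 probe (A_55_P2010093, NM_008648) read -0.82, -1.87, -2.18, -1.40 and -1.38 in mice 1 to 5 and -2.33 in the pools. The Mup5 probe (A_52_P412506, NM_008649) read -0.90, -2.19, -2.16, -1.39 and -1.34, and -2.09 in the pools. Both ran almost together from array to array, with the smallest fall in mouse 1. On fitting, this Mup4 probe stood at -1.87 (SE 0.18, n = 4, limma adjusted p = 0.00065), 3.64-fold lower. Mup5 stood at -1.77 (SE 0.19, limma adjusted p = 0.00108), 3.41-fold lower. In log2 intensity, Mup4 read 16.81 ± 0.34 in the wild-type pool and 15.38 ± 0.33 (SD, n = 4) in the mice, and Mup5 16.87 ± 0.20 and 15.39 ± 0.37 (SD, n = 4). The root mean square difference between the ratios of these probes over 6 arrays was 0.17, the smallest among member probes that bear different gene names.

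The gland forms were read against markers of salivary and lacrimal gland. Of 5 such markers 4 had a probe and 2 passed the filter on dim signal. Bhlha15, a transcription factor of secretory cells, was higher (0.47, limma adjusted p = 0.0335), and Amy1, an amylase, was at 0.12 (adjusted p = 0.332). The Mup5 probe and both Mup4 probes were lower on the same arrays. The part of gland tissue in their signal was not tested.

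The other Mup4 probe was dim. A_55_P2007816 was well above background in the wild-type channel on 6 of 6 arrays and in the Fra-1hep channel on 5, with a raw signal between 55 and 237. It read -0.33, -0.87, -0.86, -0.66 and -0.66 in mice 1 to 5 and -0.64 in the pools, lower on every array. Its fitted ratio was -0.63 (SE 0.09, n = 4, limma adjusted p = 0.00463), 1.55-fold lower. From the deposited log ratios, which have no offset, the same probe gave -1.39 (adjusted p = 0.0249), so the size of its fall depends on the treatment of dim signal. The brighter Mup4 probe was lower than the dim one by 0.78 ± 0.28 (SD, n = 4) in the mice.

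Mup20, also called darcin, is the male urinary protein known to attract females. Its probes disagreed. A_55_P2051486 (NM_001012323) read -0.21, -0.79, -0.89, -0.36 and -0.37 in mice 1 to 5 and -1.21 in the pools, lower on all 6 arrays, with the smallest fall in mouse 1. Fitted over all arrays it stood at -0.83 (SE 0.11, n = 4, limma adjusted p = 0.00265), 1.77-fold lower. On the mouse arrays alone it was -0.45 (adjusted p = 0.0126), and from the deposited log ratios it was -0.79 and did not pass (adjusted p = 0.0507).

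The brighter Mup20 probe, A_55_P2063654, bears the same accession. It read 0.65, 0.21, 0.56, 0.65 and 0.95 in mice 1 to 5, higher in each, but -0.59 in the dye-swapped pools. The fitted ratio was 0.03 (SE 0.10, n = 4, limma adjusted p = 0.869), with a dye constant of 0.63. Its log2 intensity was 16.55 ± 0.14 for the wild-type pool in Cy3 and 17.23 for the same pool in Cy5. Fra-1hep liver read 17.17 ± 0.17 (SD, n = 4) in Cy5 and 16.64 as a pool in Cy3. The higher value was thus in Cy5 whichever RNA carried it. Being higher on all 5 mouse arrays and lower on the dye-swapped one was the pattern of 9.03% of tested probes. On the mouse arrays alone, where dye and genotype cannot be told apart, this probe passed as higher (0.66, limma adjusted p = 0.00145), and 14.1% of all probes did so. Without mouse 5 the fitted ratio with both dyes was -0.01 (adjusted p = 0.935).

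**Figure D2:**
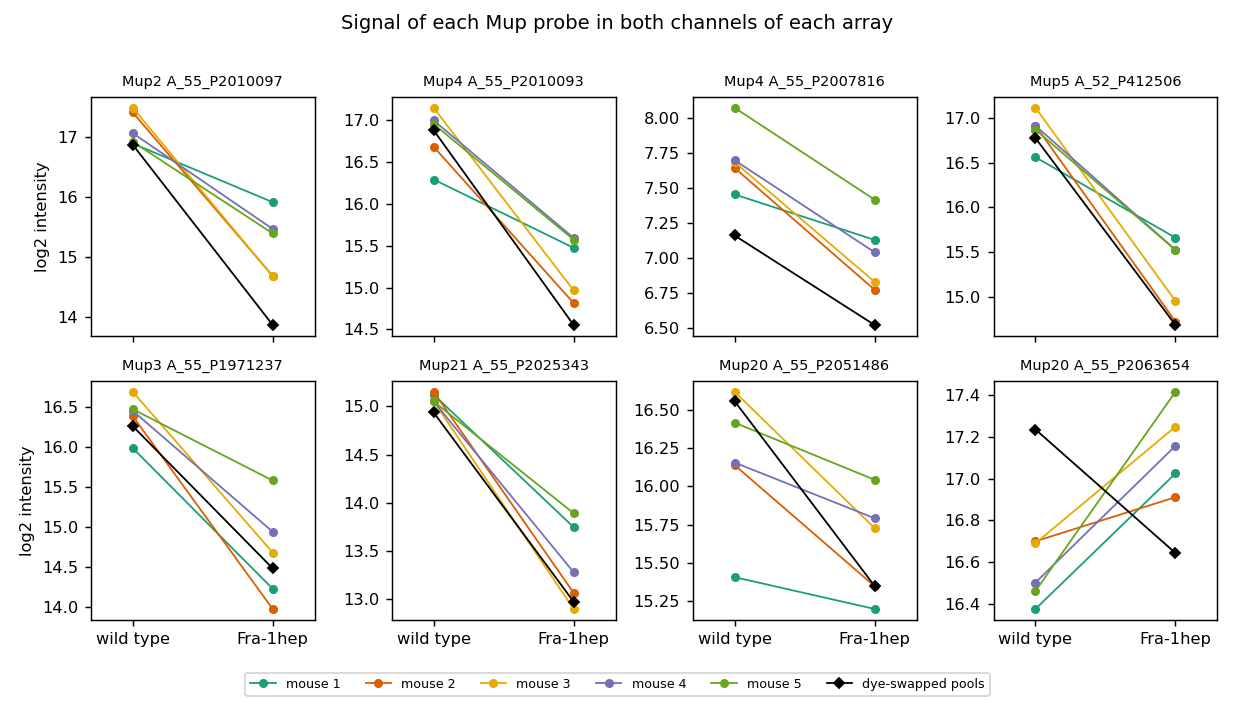
Normalised log2 intensity (vertical axes, not starting at 0 and scaled per panel) of each Mup probe in the wild-type and the Fra-1hep channel of the same array, joined by a line for each array. Lines fall from wild type to Fra-1hep in 7 panels, and in the panel of Mup20 A_55_P2063654 the 5 mouse arrays rise while the dye-swapped array falls from 17.23 to 16.64.

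The Mup20 probes differed from each other by 1.11 ± 0.21 (SD, n = 4) in the mice and by 0.61 in the pools, in the same direction on all arrays. An exact sign-flip test over the 4 samples and the pools gave a 2-sided p of 0.0625, the smallest that 5 values allow, and 0.104 after adjustment over 5 such comparisons. The falls of Mup2 and Mup3 differed by -0.12 ± 0.65 (SD, n = 4, exact p = 0.4375, adjusted 0.547), so their order was not settled. Mup3 and Mup21 differed by 0.01 ± 0.31 (SD, n = 4, exact p = 0.75, adjusted 0.75). The lowered Mup20 probe fell less than Mup2 on every array, by 1.27 ± 0.48 (SD, n = 4, exact p = 0.0625, adjusted 0.104). With 5 values such a test cannot pass 0.05. The pools carried the dyes the other way round, and the labels do not say which mice were pooled. The 5 values may therefore not be independent, and the exact p only describes them.

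**Figure D3:**
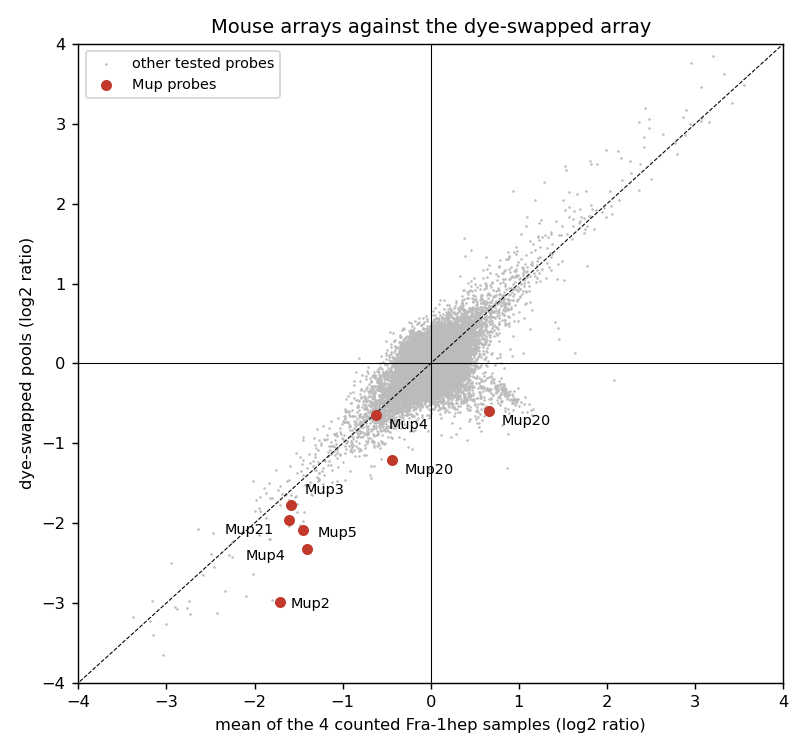
Log2 ratio in the dye-swapped pools (vertical axis) against the mean log2 ratio of the 4 counted Fra-1hep samples (horizontal axis) for the 30071 tested probes with a value on every array, with the 8 Mup probes in red and the dashed line marking equal values. Both axes are cut at 4 on either side. Of the Mup probes, 7 lie at lower left and 1 of Mup20 lies at lower right, at 0.66 and -0.59.

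All 7 lowered Mup probes had a lower ratio in the dye-swapped pools than in the mean of the mice. The dye constant of the fit was 0.64 for Mup2, 0.46 for the brighter Mup4 probe, 0.38 for the lowered Mup20 probe and 0.32 for Mup5, against 0.18 for Mup21 and 0.09 for Mup3. Mouse arrays alone gave smaller falls, for example -1.71 for Mup2 and -1.41 for Mup4, and 7 probes still passed as lower, as 11.1% of all probes did (25.2% in either direction). The scanner did not reach its ceiling: 0 member spots were saturated, and the brightest reading of a member, at A_55_P2063654, was 52.4% of the saturation value. A ceiling in the binding of RNA to a probe was not tested. Among the 100 brightest tested probes 2 were Mup probes, and of the other 98, 10 were lower and 8 higher with a median ratio of 0.01. The loess centres the ratios of each array along intensity, so a median near 0 there follows from the normalisation. It does not bear on a ceiling.

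The mice differed from each other more than the arrays of mice 2 and 3 did. Mup2, Mup4, Mup5 and the lowered Mup20 probe had their smallest fall in mouse 1, whereas Mup3 and Mup21 had it in mouse 5. For Mup3 the value in mouse 1 (-1.75) was about as low as in the pools, while for Mup2 mouse 1 (-0.97) was the mouse nearest to wild type. Over 6 arrays, which share the wild-type pool and the near-identical mice 2 and 3, Pearson's r between member probes ran from 0.14 to 0.98 in 28 pairs, with a median of 0.75. The dye-swapped array is among them, so differences in dye constant enter these values. Over the 5 mouse arrays alone, the brighter Mup20 probe stood at 0.96 with Mup3, against 0.47 over 6 arrays. With the brighter Mup4 probe it stood at 0.46, against 0.68. Over 6 arrays r was 0.98 for Mup2 with Mup5, 0.95 for Mup4 with Mup5, 0.81 for Mup3 with Mup21 and 0.40 for Mup3 with Mup4. Mup21 ran at least as close to Mup5 (0.86) and Mup2 (0.85) as to Mup3, and stood at 0.78 with the brighter Mup4 probe. All these r are descriptions. Slide means of the 7 lowered probes stayed below 0 on each of the 3 slides, for example -1.84, -2.46 and -1.52 for Mup2 and -2.08, -1.76 and -0.89 for Mup3.

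**Figure D4:**
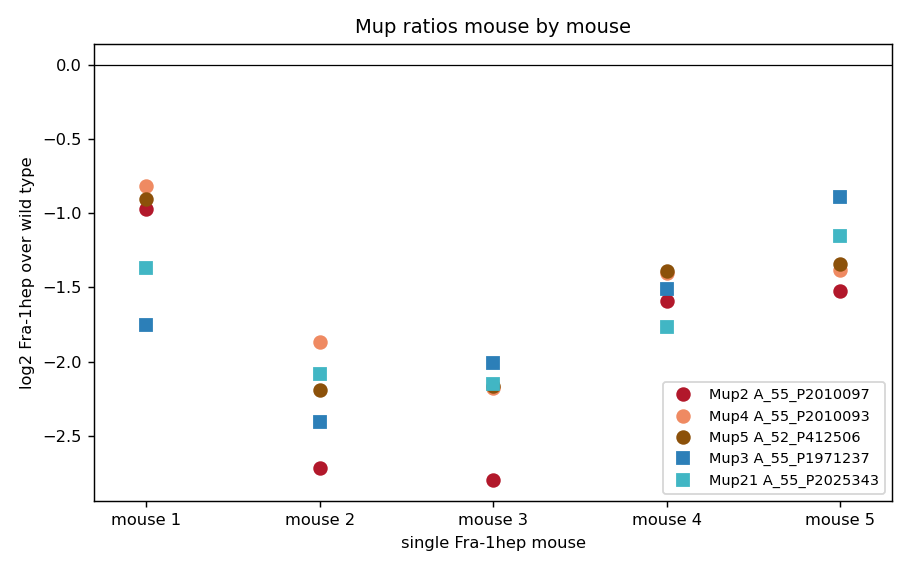
Log2 ratio of Fra-1hep over wild type (vertical axis) in the 5 single mice (horizontal axis, in no order) for the bright probes of Mup2, Mup4 and Mup5 (circles) and of Mup3 and Mup21 (squares). In mouse 1 the circles lie above the squares, at -0.97 to -0.82 against -1.75 and -1.37, and in mouse 5 they lie below them.

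Mup genes outside the member list were lower too. Mup19 was lower on its probes A_55_P1974080 (-2.38, SE 0.24) and A_55_P1987403 (-2.33, SE 0.26), and Mup6 on A_55_P2061104 (-1.92, SE 0.24), so that 10 of 11 Mup probes were lower. Mup19 read -1.24 and -1.32 in mouse 1, again the smallest fall among the mice.

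Outside the family, the genes nearest to the members in ratio over the 6 arrays were sought among 13928 genes. They were picked on these same arrays, so their low ratios, r and adjusted p follow from the choice and only describe them. For Mup21 this was Cyp4a32, a fatty acid hydroxylase, with a root mean square difference of 0.07 (r = 0.98) and a ratio of -1.83 (limma adjusted p = 0.00028). Pax2 and Fitm1, at 0.21 each, followed. For Mup5 and for Mup4 it was Pax2, a transcription factor of kidney development, at 0.11 and 0.21 with a ratio of -1.76 (adjusted p = 0.0013). Cyp4a32 came next for both, followed by Sult5a1, a sulfotransferase, for Mup5 and Fitm1 for Mup4. For Mup3 it was Rgs3, a regulator of G-protein signalling, at 0.21 with a ratio of -1.62 (adjusted p = 0.00395), before Nxpe2 and Cyp4a32. For Mup2 no gene came so close: Pax2 stood at 0.53, Elovl3 at 0.54 and Orm3 at 0.62. Cyp4a32 and Orm3 have near copies whose transcripts these probes may share.

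Other genes known to be higher in male liver moved in both directions. Of 21 tested, 9 were lower, 2 higher and 10 did not pass, with a median of -0.33. Hsd3b5, a steroid dehydrogenase of male liver, read -3.16, -3.20, -3.54, -3.36 and -2.16 in mice 1 to 5 and -3.26 in the pools. It was lower on all 6 arrays, least so in mouse 5 as for Mup3 and Mup21, and its fitted ratio was -3.14 (SE 0.20, limma adjusted p = 0.000118). Slco1a1, an organic anion carrier, was at -2.73 (SE 0.32, adjusted p = 0.00164; 0.0711 with an intensity-dependent robust variance), and Elovl3, a fatty acid elongase, at -2.02 (SE 0.15, adjusted p = 0.000244). Scara5, a ferritin receptor, fell by 1.12 and Susd4, a complement inhibitor, by 0.83. Gstp1, a glutathione transferase, rose by 0.78 and C6, a complement component chosen here after its value was seen, by 0.46. Serpina1e (-0.33, adjusted p = 0.0523), C8b (0.27, adjusted p = 0.128) and Cyp2j5 (-0.25, adjusted p = 0.147) did not pass.

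Genes known to be higher in female liver also moved in both directions. Of 20 listed, 18 had a probe and 10 were tested, with 6 lower, 2 higher, 2 not passing and a median of -0.53. Of the 6 lower genes, 3 were not well above background in Fra-1hep on every array (Slc22a26 and Abcd2 on 1 of 6, Cyp2b9 on 3 of 6) while they were in wild type on all 6, so they could pass the filter through the group where they are high. When both channels had to be above background on every array, 7 genes were left, of which 3 were lower and 2 higher. Cyp2b10, a drug-metabolising P450, was at -1.18 (SE 0.28, limma adjusted p = 0.0322), not passing with an offset of 16 (0.0521). Acot3, an acyl-CoA thioesterase, was at -1.02 and Slc22a26, an anion carrier, was lower with a measured ratio of -0.86, of uncertain size since its Fra-1hep signal was near background. Cyp2b9 fell by 0.61 and Cyp3a16 by 0.55, both P450 enzymes, the latter not passing with median centring (0.0544). Prom1, a membrane glycoprotein, rose by 0.66 and Fmo2, a flavin monooxygenase chosen after its value was seen, by 0.51. Cyp2a4 (0.16, adjusted p = 0.489) and Cyp17a1 (-0.08, adjusted p = 0.814) did not pass.

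The sex of the animals was checked only through the signals of sex-linked genes. Ddx3y and Eif2s3y, on the Y chromosome, were well above background in both channels on 6 of 6 arrays, as was Uty on its brighter probe. Their ratios were 0.15, 0.02 and -0.08 (limma adjusted p = 0.152, 0.933 and 0.508), so 0 of 3 passed. The dimmer Uty probe was above background on 3 arrays in Fra-1hep and 1 in wild type. Kdm5d, also on the Y chromosome, was so on 1 of 6 arrays in each group and was not tested. Xist, the transcript of the inactive X chromosome, was not above background in wild type on any array by either of its probes, and in Fra-1hep on 2 arrays by 1 of them. The single mice read between -0.21 and 0.35 for Ddx3y and Eif2s3y.

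Along the pathway known to drive Mup genes, the receptor and the best-known target of growth hormone were slightly lower and the kinase and Stat5b did not pass. Of 19 tested genes of growth hormone signalling and regulators of Mup genes, 5 were lower, 1 was higher and 13 did not pass, with a median of -0.04. Centring arrays on the median in place of loess gave 0 lower and 2 higher instead, so the direction of this group rests on the scaling. Without mouse 4 the count was 3 lower and 0 higher. Ghr, the growth hormone receptor, read -0.26, -0.77, -0.72, -0.88 and -0.48 in mice 1 to 5 and -0.23 in the pools. Its ratio was -0.41 (SE 0.11, limma adjusted p = 0.0472), and it did not pass without mouse 4 (adjusted p = 0.0581), without mouse 5 (0.065) or with median centring (0.143).

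Jak2, the kinase bound to the receptor, was at 0.01 (SE 0.06, limma adjusted p = 0.973), and Stat5b, the transcription factor it activates, at 0.15 (SE 0.10, adjusted p = 0.394). Socs2, a feedback inhibitor induced by growth hormone, read -1.45 in mouse 1, 1.17 and 1.14 in mice 2 and 3, 0.25 in mouse 4, 0.34 in mouse 5 and 0.27 in the pools. It was below wild type in mouse 1 only, and its fitted ratio was 0.17 (SE 0.37, adjusted p = 0.83). Igf1, the growth factor made by liver under growth hormone, read -0.63, -0.51, -0.49, -0.39 and -0.56 in mice 1 to 5 and -0.37 in the pools. It was lower on all arrays, by 0.44 on the log2 scale (SE 0.07, adjusted p = 0.00456), though not with median centring (-0.29, adjusted p = 0.0556).

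Igfals, a partner of Igf1 in blood, was at -0.48 (limma adjusted p = 0.00725) and Trim24, a nuclear receptor cofactor, at -0.33 (adjusted p = 0.0122), both not passing with median centring (0.0535 and 0.08). Thra, a thyroid hormone receptor, was at 0.31 (adjusted p = 0.0442) and passed in 1 of the 5 fits that left out a mouse, failing without mouse 1 (0.0519), mouse 3 (0.0641), mouse 4 (0.0789) or mouse 5 (0.0624). Cebpa (-0.29, adjusted p = 0.131), Nr3c1, the glucocorticoid receptor (0.16, adjusted p = 0.154), and Hnf4a (0.15, adjusted p = 0.318) did not pass. Zhx2, another listed regulator of Mup genes, was too dim to be tested.

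Other lipocalins moved in both directions. Of 11 tested, 5 were lower, 1 was higher and 5 did not pass, with a median of -0.16. Orm3, an orosomucoid of the acute phase, read -1.05, -2.30, -2.25, -2.14 and -1.36 in mice 1 to 5 and -1.78 in the pools, close to the Mup probes, and was at -1.74 (SE 0.21, limma adjusted p = 0.00183). Its relatives Orm2 and Orm1 were at -0.70 and -0.57 (adjusted p = 0.0104 and 0.0274), Orm1 not passing with median centring (0.0652). Lcn2, a siderophore binder of neutrophils and injured epithelia, fell by 0.82, and C8g, a complement subunit, by 0.56 (adjusted p with median centring 0.0541). Obp2a, an odorant-binding protein, rose by 1.25 (SE 0.21, adjusted p = 0.00858). Rbp4, the retinol carrier (0.29, adjusted p = 0.0641), Ptgds (-0.16, adjusted p = 0.131) and Apom (-0.07, adjusted p = 0.551) did not pass.

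Most other proteins that hepatocytes secrete in bulk did not pass. Of 22 tested, 5 were lower, 1 was higher and 16 did not pass, with a median of -0.06. On the mouse arrays alone 13 passed as higher and 3 as lower, without a dye constant 6 and 3, and with median centring 5 and 3, so the direction of this group rests on the scaling and on the dye-swapped array. Hpx, the haem binder, was at -0.97 (SE 0.09, limma adjusted p = 0.000745) and Hp, haptoglobin, at -0.67 (adjusted p = 0.00514). Alb, albumin, fell by 0.65, Cp, a copper oxidase, by 0.36 and Apoa1, the main protein of HDL, by 0.34. Without a dye constant Hp (adjusted p = 0.32) and Alb (0.0752) did not pass, nor with median centring did Cp (0.136) and Apoa1 (0.266). Fgb, a fibrinogen chain, rose by 0.88. Ttr (-0.30, adjusted p = 0.0728), Fgg (0.41, adjusted p = 0.075) and Apoe (0.27, adjusted p = 0.0869) did not pass. The brightest probes of Mup2, Mup3, Mup4, Mup5 and Mup21, from -1.68 to -2.35, lay below every member of this group.

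**Figure D5:**
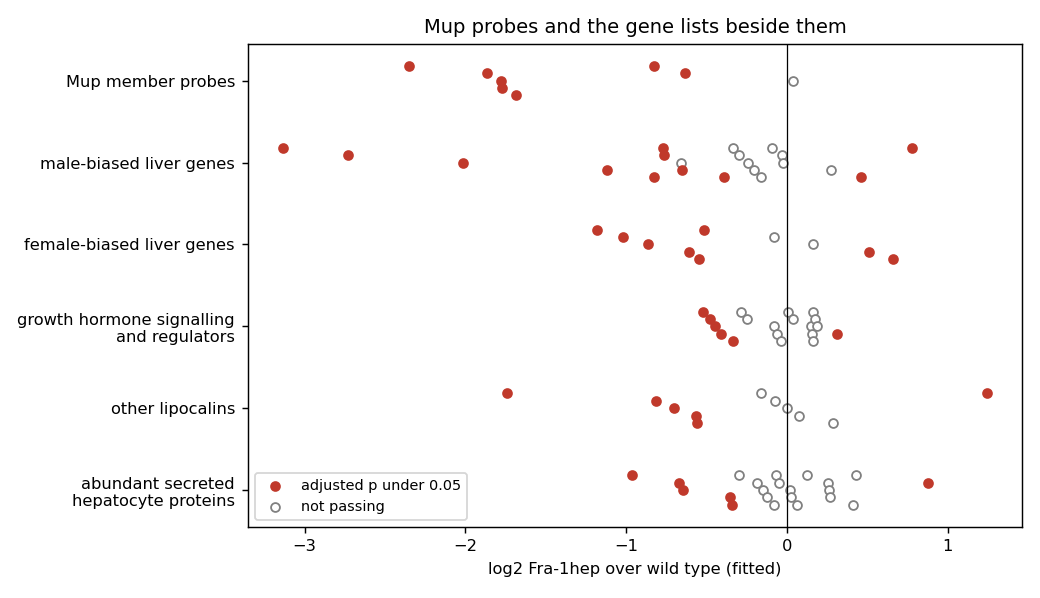
Fitted log2 ratio of Fra-1hep over wild type (horizontal axis) for the 8 Mup probes and for the tested genes of 5 lists (rows, points offset vertically for sight only). Filled points passed an adjusted p of 0.05 and open points did not. Of the Mup probes 5 lie at or below -1.68, and the lowest point of all is Hsd3b5 at -3.14.

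Markers of other liver cells moved on the same arrays. All 5 tested neutrophil markers (Ngp, Camp, S100a8, Mpo and S100a9) were higher, with a median of 3.48. The median of the 5 was 2.10, 3.78, 3.85, 4.41 and 1.72 in mice 1 to 5 and 3.77 in the pools. Mice 1 and 5 had the lowest neutrophil signal. Mup2, Mup4 and Mup5 fell least in mouse 1, and Mup3 and Mup21 in mouse 5. Mup3 in mouse 1 (-1.75) fell more than in mouse 4, and Mup2 in mouse 5 (-1.52) was close to mouse 4. Mouse 4, with the highest neutrophil signal, was at -1.59 for Mup2 and -1.51 for Mup3, above mice 2 and 3 for both. Of 5 Kupffer cell and macrophage markers 4 were lower (median -0.61), as were 4 of 6 endothelial markers (median -0.47). Of 6 cholangiocyte markers 2 were higher (median 0.20), of 6 stellate cell markers 1 was lower (median -0.11), and 2 of 4 T and NK cell, 2 of 3 B cell and 1 of 2 red blood cell markers were lower. The 1 pancreas marker tested did not pass, and 0 of 3 adipose markers were bright enough to test. The part of these cells in the fall of the Mup probes was not tested.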

How the data were processed

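Liver RNA was measured on 6 Agilent arrays in 2 colours. The labels name 5 single Fra-1hep mice and a dye-swapped array of pools, while the design text speaks of 6 single mice; the labels were followed. Per the labels, 100 ng of RNA with integrity above 7.8 was labelled. The authors extracted images with Agilent Feature Extraction (version 10.7 in the submitters' processing notes and 10.7.3.1 in the file headers). Per the file headers, the deposited files of the scanner give median spot and background signals as intensity, not normalized, and a log10 ratio of processed signals that was background-subtracted and dye-normalised, per the file headers. They also give deposited marks, scored 0 or 1, for saturated spots, uneven spots and spots above background. A deposited value table by the authors holds the same processed signals as log2 ratios, turned to Fra-1hep over wild type and not centred (column medians -0.18 to 0.06).

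From the median signals, background was corrected with normexp (offset 50) and ratios normalised by loess within arrays in limma 3.58.1 (R 4.3.3, data.table version 1.17.8), with control and outlier spots at weight 0 and replicate spots averaged. With this offset, dim probes give ratios nearer to 0. Levels per channel are after Aquantile scaling. A probe was tested if well above background in Fra-1hep on at least 3 of 5 mouse arrays or in wild type on at least 3 of 6 arrays. limma (lmFit and eBayes) fitted log2 Cy5 over Cy3 with a dye constant and genotype, coded 1 for mouse arrays and -1 for the dye swap, 2-sided, with 3 residual and 5.15 prior degrees of freedom and Benjamini-Hochberg adjustment over all 30110 tested probes. The fit was also run on simulated data in which the dye-swapped array had the spread of the mouse arrays. That run does not bear on the real error of the dye-swapped array. Probes were named through accessions and the GRCm38.p6 RefSeq list; the arrays were designed on another build, so coordinates are given for RefSeq promoter windows only (4 of 7 members had one). A listed gene stands for its brightest probe. From each list the changed genes are named by size, up to 6, with up to 3 that did not pass, and Ghr, Stat5b, Jak2, Socs2 and Igf1 always; C6 and Fmo2 are named beyond this rule, after their values were seen, to complete the counts of higher genes; for each lowered member the 3 nearest genes are named. A gene of the growth hormone list is counted but not reported here by name. Members and lists were chosen with earlier results of these data known. Alternatives changed the normalization, the offset, the starting values, the filter, the variance model, the dye constant, the arrays and the samples.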

Additional observations from a re-analysis of the deposited data

How the results depend on the processing

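The number of changed Mup probes was 7, and it lay between 5 and 8 under 19 alternatives, 5 being all but 1 of the 6 genes when each gene kept its brightest probe alone. Leaving out any mouse gave 7 each time, as did leaving out mice 2 and 3 together or giving the Mup probes no weight in the loess fit, both chosen after seeing the data. Mup2 ranged from -2.47 to -1.71, Mup3 from -1.80 to -1.51, Mup21 from -1.86 to -1.60, Mup5 from -1.86 to -1.45 and the brighter Mup4 probe from -1.96 to -1.41, passing throughout. The dim Mup4 probe ranged from -1.39 to -0.51. Over all probes 3480 changed, 47.8% of them higher. This was 1625 with the deposited log ratio, 1624 with the deposited series table, 5898 without a dye constant, 7585 with the mouse arrays alone and 2913 to 3304 without 1 mouse. With median centring 74.3% of 3952 changed probes were higher, the median of all probes being 0.08 instead of 0.01. With either the deposited log ratio or the series table, the lists gave 1 changed gene for growth hormone signalling, 7 for male-biased genes and 2 each for female-biased genes, other lipocalins and secreted proteins. The growth hormone list gave 2 with median centring, 3 with an offset of 16, 3 with a robust variance that follows intensity, and 3 to 6 without 1 mouse. The female-biased list gave 5 when both channels had to be above background on every array, and secreted proteins gave 16 with the mouse arrays alone. The cause of these shifts was not tested. Each ratio already sets Fra-1hep RNA beside the wild-type pool on the same array. Pairing with single wild-type mice was not possible because each mouse was set against the same wild-type pool and no control carries a replicate number. Low spot intensity limits the dim Mup4 probe most, since its signal lay near background.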
